A study of Mus musculus with 4 samples.

Results

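Peroxiredoxins, superoxide dismutases, catalase and glutathione peroxidase 4 are the enzymes with which a cell removes superoxide and peroxides. The 10 genes described here were taken by name: Prdx1, Prdx2, Prdx3, Prdx4, Prdx5, Prdx6, Sod1, Sod2, Cat and Gpx4. They are 10 of the 55401 gene identifiers in the count files, and all 10 passed the filter on low counts that left 19335 genes for the diet comparison. Female ICR mice ate a normal diet (ND) for 4 months, or a high-fat diet (HFD) for as long, and were mated with ND males, and RNA was taken from SSEA-1-positive germ cells sorted from the ovaries of their fetuses at E18.5. There were 2 ND and 2 HFD libraries, made with SMART-Seq2, which amplifies full-length cDNA from the polyadenylated RNA of few cells. No transgene or drug was used, each library was a pool of oocytes from several fetuses, and the labels name the cells primordial germ cells of the ovary. The sources used here do not say whether the replicates of a diet shared mothers, so that p-values measure the spread between these pools.

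Superoxide, which leaks from the respiratory chain and is made by oxidases, is turned into hydrogen peroxide by SOD1 in the cytosol and by SOD2 in the mitochondrial matrix. Peroxiredoxins then reduce the peroxide with a reactive cysteine, which thioredoxin restores in most of them, and catalase breaks the peroxide down in peroxisomes. GPX4, a selenoenzyme, reduces lipid peroxides in membranes and so holds back ferroptosis. Fetal oocytes arrest in prophase I of meiosis and stay arrested for most of a female's reproductive life, and oxidative damage to their DNA and membranes is known to limit their survival.

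The sequences around the catalytic residue are shown because they separate the family into its classes and show how alike the genes are at this site. They come from GENCODE M21 transcripts, in 27-base windows read 5′ to 3′. Capitals mark the codon of the reactive (peroxidatic) cysteine or, in Gpx4 and its relative Gpx1, the TGA codon read as selenocysteine.
Prdx1: tttacttttgtgTGTcccacggagatc
Prdx2: ttcacttttgttTGCcccacggagatc
Prdx3: ttcacatttgtgTGTcctacagaaatt
Prdx4: ttcacctttgtgTGTccaactgaaatc
Prdx5: tttacacctggcTGTtctaagacccac
Prdx6: tttaccccagtgTGCaccacagaactt
Gpx4: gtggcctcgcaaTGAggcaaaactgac
Gpx1: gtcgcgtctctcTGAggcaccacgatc
Of the 27 bases, Prdx2 shared 24 with Prdx1, Prdx4 shared 22 and Prdx3 shared 21. Prdx6, the only 1-Cys peroxiredoxin, shared 17, and Prdx5, the atypical 2-Cys member, shared 14.

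Total counts ran from 5723605 to 8223255 per library, and 3 counts, taken as the floor, corresponded to 0.365 to 0.524 CPM (reads of a gene scaled to the library total). Reads on 1135 olfactory receptor genes served as the background: a gene was above background where its reads per kilobase of exon exceeded their 99th percentile, 7.43 to 12.5 reads per kilobase, and its count exceeded 3. Of 10 germ cell markers, 10 and 9 were above background in the ND libraries and 6 in each HFD library, with summed levels of 2176 and 4767 CPM in ND and 1575 and 4731 CPM in HFD. Ddx4, a defining germ cell helicase, held 49 and 97 counts in ND and 5 and 14 in HFD and was at background in both HFD libraries. By fitted log2 fold change, 5 of the 10 markers were lower in HFD and 5 higher. Tex15 alone gave 3356 of the 4731 CPM in HFD replicate 2. Libraries of 1 diet resembled each other little: the Pearson correlation of log2 CPM over 19335 genes was 0.480 within ND, 0.365 within HFD and 0.359 to 0.392 between libraries of different diets, across genes that are not independent. In bulk samples fewer cells of a type and less RNA per cell cannot be told apart.

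The summed RNA level of the 10 genes was lower in both HFD pools than in both ND pools, while single members differed in direction. The sum was 8759 and 9337 CPM in ND replicates 1 and 2, and 2940 and 670.2 CPM in HFD replicates 1 and 2. The means were 9048 ± 408 and 1805 ± 1605 CPM (SD, n = 2 each), a 5.01-fold ratio. The 6 peroxiredoxins accounted for most of the gap, at 7148 and 5742 CPM in ND and 467 and 398 in HFD, a 14.9-fold ratio of means. Superoxide dismutase levels overlapped between the diets, at 980 and 2714 CPM in ND and 2471 and 264 CPM in HFD. Without Prdx1 the remaining 9 genes summed to 3532 and 5376 CPM in ND and 2655 and 319 CPM in HFD. On this scale of library totals the ND and HFD values still did not overlap, but after TMM scaling they did. HFD replicate 1 then reached 4315 CPM over the 10 genes, of which Prdx1 gave 419. ND replicate 1 reached 8805 CPM, of which Prdx1 gave 5254.

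**Figure D1:**
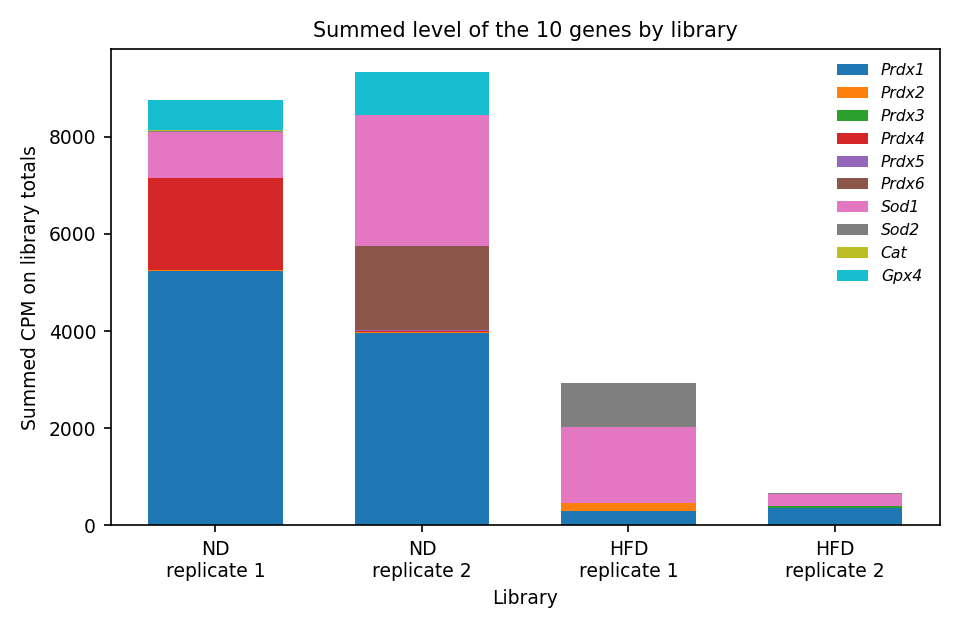
Stacked bars of CPM on library totals for the 10 genes in each of the 4 libraries. The ND bars reach 8759 and 9337 CPM and the HFD bars 2940 and 670.2 CPM, and the blocks that build the bars differ between libraries of the same diet.

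The makeup of these sums differed even where the sums were close. Prdx1 made up 59.7% of the members' counts in ND replicate 1 (95% Wilson interval 59.3 to 60.0%) and Prdx4 another 21.5%. In ND replicate 2 Prdx1 made up 42.4%, Sod1 28.9% and Prdx6 18.49%. Sod1 led HFD replicate 1 with 52.8%, followed by Sod2 with 31.2%, whereas Prdx1 with 52.4% and Sod1 with 38.4% led HFD replicate 2. Without molecular identifiers in the reads, these intervals describe counting error alone.

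**Figure D2:**
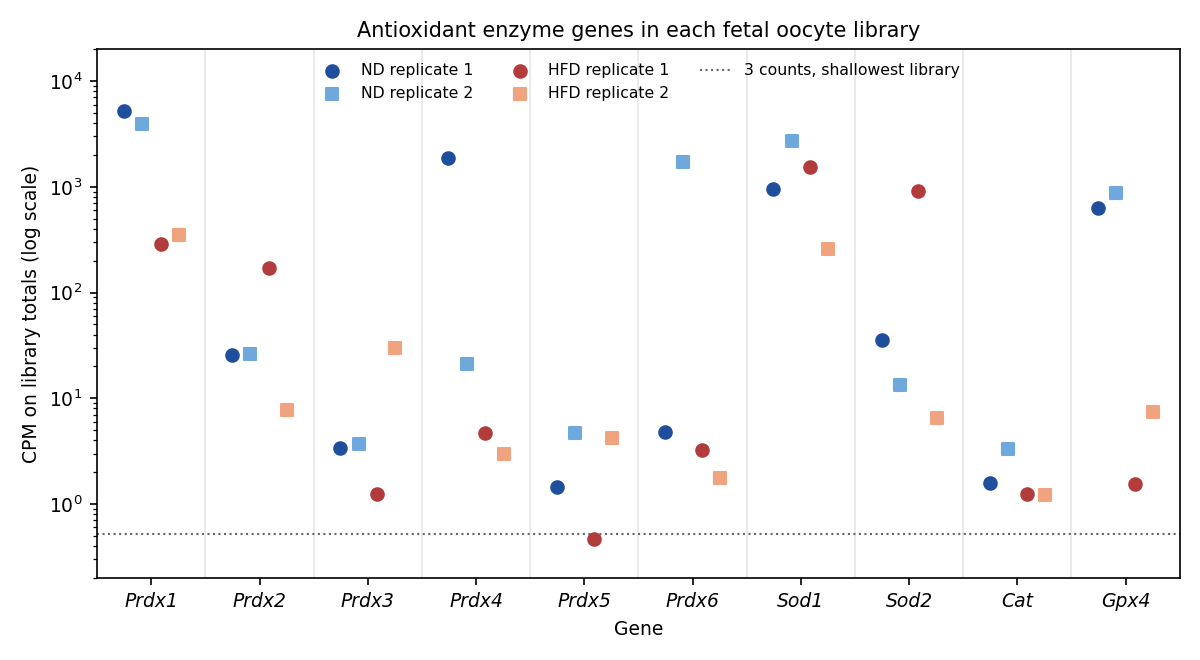
CPM of each gene in each library on a log axis, with circles for replicates 1 and squares for replicates 2, and a dotted line at 3 counts in the shallowest library. Prdx1 and Gpx4 show close pairs within ND that lie above both HFD points, whereas Prdx4, Prdx6 and Sod2 are high in 1 library only.

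Prdx1 encodes the most abundant cytosolic peroxiredoxin of many tissues, lies on chromosome 4 (116685544 to 116700822, plus strand, GRCm38) and had the highest mean CPM of the members. Its counts were 42982 and 30949 in ND, and 1844 and 2011 in HFD, or 5227, 3960, 286 and 351 CPM. Both HFD libraries were far below both ND libraries, and the libraries of each diet were close to each other. Among 21897 protein-coding genes it ranked 6 and 27 in ND, and 914 and 497 in HFD. The means were 4594 ± 896 CPM in ND and 318 ± 46.5 CPM in HFD (SD, n = 2 each), a 14.4-fold ratio. On library totals the replicates differed by 1.32-fold in ND and 1.23-fold in HFD. In the fit over all genes the log2 fold change of HFD against ND was -3.86 with a standard error of 2.16 (95% interval -9.33 to 1.62, adjusted p = 0.476, edgeR quasi-likelihood with Benjamini-Hochberg adjustment), so the difference did not pass the test. Leaving out any 1 library kept it between -4.43 and -3.50.

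Closeness of replicates was uncommon in these libraries. Of 98 protein-coding genes with at least 50 CPM in all 4 libraries, 7 had replicates within 1.5-fold of each other in both diets, a limit chosen after the values were seen: Rps21, Prdx1, Actb, Tmf1, Rps19, Cfl1 and mt-Nd1. Among these 7 the ND mean was more than 10 times the HFD mean for 2, Prdx1 and Cfl1. The limit was applied on library totals. After TMM scaling Prdx1 had 419 and 241 CPM in the HFD libraries, which is beyond the 1.5-fold limit. Sod1 was the only other member among the 98, with replicates 2.86-fold apart in ND. Among genes with 50 CPM or more in at least 1 library of a diet, 76.6% of 1878 differed by more than 10-fold between the ND libraries and 78.9% of 2219 between the HFD libraries. For the members the counts were 2 of 5 in ND (Prdx4 and Prdx6) and 2 of 4 in HFD (Prdx2 and Sod2).

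**Figure D3:**
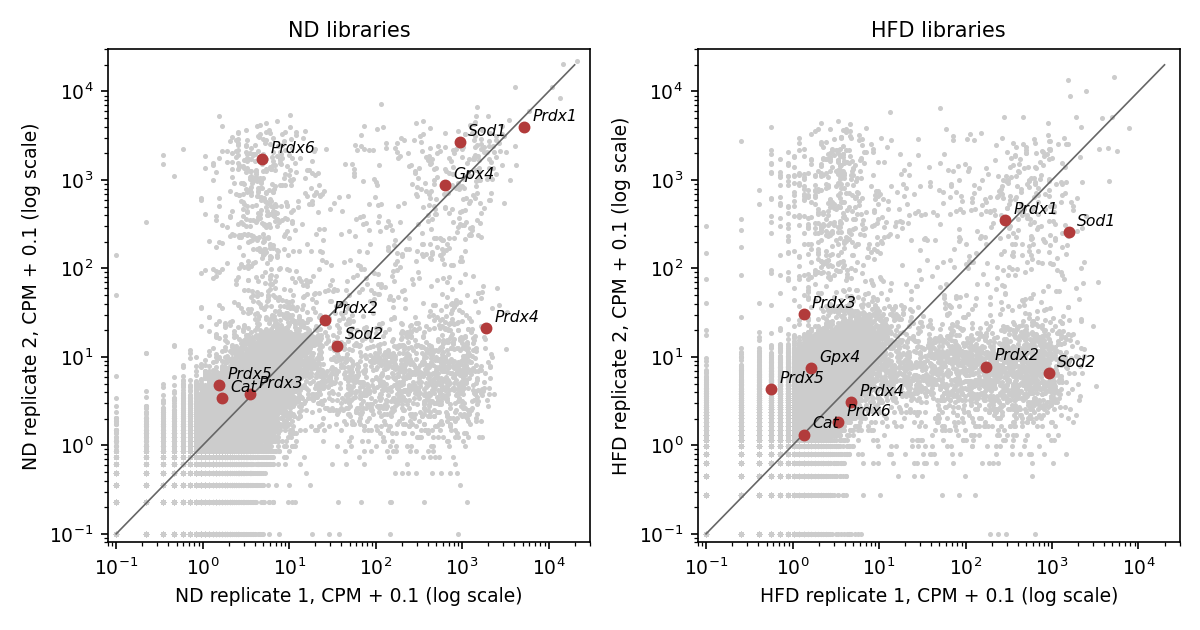
CPM plus 0.1 of protein-coding genes (grey) and the 10 members (red, named) in replicate 1 against replicate 2 of each diet, both axes on a log scale, with the line of equal values. Prdx1 lies near the line in both panels, Gpx4 and Prdx2 near it in ND, whereas Prdx4 and Prdx6 in ND and Prdx2 and Sod2 in HFD lie in the arms of genes seen in 1 library.

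Gpx4, the lipid peroxide reductase on chromosome 10 (80047166 to 80056439, plus strand), was the other member with a clear and repeated gap. Its counts were 5171 and 6852 in ND, and 10 and 42 in HFD, or 629, 877, 1.55 and 7.34 CPM. Both ND libraries were high, HFD replicate 1 was at background and HFD replicate 2 was just above it. The ND mean was 753 ± 175 CPM and the HFD mean 4.44 ± 4.09 CPM (SD, n = 2 each). HFD against ND gave a log2 fold change of -7.75 with a standard error of 2.15 (95% interval -13.08 to -2.42, unadjusted p = 0.0123 in the edgeR fit, adjusted p = 0.406), and it ranged from -8.42 to -7.41 with any 1 library left out. Falling under 50 CPM in both HFD libraries was not unusual: of 349 protein-coding genes with at least 50 CPM in both ND libraries, 125 or 35.8% did so.

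Gpx4 has a near-identical copy. The transcribed processed pseudogene Gpx4-ps2, also on chromosome 10 (45875291 to 45876086), matched Gpx4 at 99.73% over 733 bases with 2 mismatches, C384T and C699T, counted from 1 at the 5′ end of the Gpx4 transcript, with the Gpx4 base first. Windows of 29 bases around them show, in capitals, the only aligned bases by which a read could be assigned to one gene or the other.
Gpx4 at C384T: tgcatcgtcaccaaCgtggcctcgcaatg
Gpx4-ps2 at C384T: tgcatcgtcaccaaTgtggcctcgcaatg
Gpx4 at C699T: ctcattgataagaaCggctgcgtggtgaa
Gpx4-ps2 at C699T: ctcattgataagaaTggctgcgtggtgaa
Counts on Gpx4-ps2 were 987 and 1211 in ND and 1 and 7 in HFD, which is 19.1%, 17.7%, 10% and 16.7% of the Gpx4 count of the same library. The log2 fold change of the copy was -8.01. How reads that align to both were counted is not given in the sources used here, so the level of Gpx4 is uncertain by an unknown amount. Smaller counts fell on processed pseudogenes of Prdx1: Gm21399 held 62, 310, 1 and 2 counts and Gm7204 held 10, 64, 3 and 0 in the order ND 1, ND 2, HFD 1 and HFD 2. For Sod1, Gm8566 held 7, 4, 19 and 5 counts in that order, and for Gpx4, AC122253.3 held 2, 11, 3 and 0. Adding all pseudogenes matched by sequence changed the summed level to 8890 and 9542 CPM in ND and 2945 and 674 CPM in HFD.

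Prdx4 and Prdx6 had large fitted differences that each rested on 1 ND library. Prdx4, the peroxiredoxin of the endoplasmic reticulum, held 15509 counts in ND replicate 1, 164 in ND replicate 2, and 30 and 17 in the HFD libraries. The order ND above HFD held, but the ND libraries lay 89.9-fold apart. Its log2 fold change was -7.76 (standard error 2.996, unadjusted p = 0.0434 and adjusted p = 0.406 in edgeR) and became -2.41 without ND replicate 1. Prdx6, which also has phospholipase activity, held 39 counts in ND replicate 1, 13491 in ND replicate 2, and 21 and 10 in the HFD libraries. It was above background in ND replicate 2 alone. The log2 fold change of -8.30 (standard error 3.38, adjusted p = 0.406 in edgeR) became -0.68 without ND replicate 2. Counts on Prdx6b, an annotated relative, were 5 to 8 in every library.

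The other peroxiredoxins were low in most libraries. Prdx2, a cytosolic enzyme especially abundant in red blood cells, held 212 and 206 counts in ND, 1110 in HFD replicate 1 and 44 in HFD replicate 2. Both ND libraries were alike and the HFD libraries lay on either side of them. Prdx3, the thioredoxin-dependent enzyme of the mitochondrial matrix, held 28 and 29 counts in ND, 8 in HFD replicate 1 and 172 in HFD replicate 2, again with the HFD values on either side. Their log2 fold changes of 2.24 (standard error 1.87, adjusted p = 0.668) and 1.59 (standard error 1.16, adjusted p = 0.604) turned to -2.49 without HFD replicate 1 and to -1.02 without HFD replicate 2. Prdx5, found in mitochondria, peroxisomes and cytosol, held 12 and 37 counts in ND and 3 and 24 in HFD and was above background in ND replicate 2 alone, with a log2 fold change of -0.88 (standard error 0.99, adjusted p = 0.776).

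Overlapping genes limit some of these counts, since the strand setting of the counting is not given in the sources used here. The first part of Prdx5 shares 360 exonic bases with Trmt112 on the opposite strand, which held 7 and 4883 counts in ND and 3343 and 2284 in HFD. Prdx2 overlaps Junb and Rnaseh2a, and Junb held 16 and 10 counts in ND and 974 and 44 in HFD, with its highest count in the same library as Prdx2. Sod1 overlaps Scaf4, with 44, 35, 642 and 40 counts. The part of shared reads in the members' values was not tested.

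Sod1 and Sod2 stood apart from each other. Sod1, the copper and zinc enzyme of the cytosol, held 7771 and 21108 counts in ND and 10021 and 1472 in HFD, or 945, 2701, 1552 and 257 CPM. It was high in all 4 libraries and the diets overlapped, with HFD replicate 1 between the ND libraries. HFD against ND gave a log2 fold change of -0.66 (standard error 2.17, adjusted p = 0.950), which was 0.39 without ND replicate 2 and 0.24 without HFD replicate 2. Sod2, the manganese enzyme of the mitochondrial matrix, held 292 and 104 counts in ND, 5931 in HFD replicate 1 and 37 in HFD replicate 2. It was high in 1 HFD library and lowest in the other, so that the log2 fold change of 4.75 (standard error 2.79, adjusted p = 0.497) became -2.61 without HFD replicate 1. The matrix pair Prdx3 and Sod2 together reached 38.9 and 17.02 CPM in ND and 920 and 36.5 CPM in HFD.

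Cat, the peroxisomal catalase, was the lowest member by mean CPM. Its counts were 13 and 26 in ND and 8 and 7 in HFD, and it was above background in ND replicate 2 alone. Both HFD counts were below both ND counts by a few, but the diets overlapped after TMM scaling. The log2 fold change in edgeR was -0.97 (standard error 0.69, adjusted p = 0.589). Members above background were spread unevenly over the libraries: 7 in ND replicate 1, 10 in ND replicate 2 and 5 in each HFD library. Prdx1, Prdx2 and Sod1 were above background in all 4.

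Per kilobase, the order of the members depended on the length used. With the union of annotated exons, ND means were 1510 ± 294 reads per kilobase and library size (RPKM) for Prdx1, 459 ± 313 for Sod1, 453 ± 626 for Prdx4 and 437 ± 102 for Gpx4 (SD, n = 2), and the 2 ND values of Prdx1 lay above those of Sod1, while Sod1, Prdx4 and Gpx4 overlapped. The union of Sod1 exons spans 3970 bases and its longest protein-coding transcript 641 bases. With that transcript length, an alternative chosen after seeing the data, Sod1 had 1474 and 4214 RPKM in ND and Prdx1 had 2279 and 1726, so that the values of these 2 genes overlapped. On either scale Prdx6, Prdx2, Sod2, Prdx3, Prdx5 and Cat had lower ND means than these 4. In HFD, Sod1 and Prdx1 led on both scales.

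Across the 10 members the diet comparison leaned to lower values in HFD. On library totals, both HFD libraries lay below both ND libraries for 5 members (Prdx1, Prdx4, Prdx6, Cat and Gpx4), where 13.4% of 19335 genes did so. They lay above both for 0 members, where 13.9% of genes did so. After the scaling of the edgeR fit (TMM), Cat and Prdx6 overlapped between the diets. HFD replicate 1 then had 1.818 CPM of Cat and 4.772 CPM of Prdx6, against 1.589 and 4.767 CPM in ND replicate 1. Both genes were above background in ND replicate 2 alone. At an unadjusted p under 0.05 in edgeR, 2 members were lower in HFD (Prdx4 and Gpx4) against 6.41% of all genes, and 0 were higher against 4.82%. After adjustment edgeR called 0 members and 0% of 19335 genes. DESeq2 on all genes, the tool of the study, called Prdx1, Prdx4, Prdx6 and Gpx4 lower and Sod2 higher, on a background of 21% of its 5601 genes with an adjusted p called lower and 24.3% higher. Its log2 fold change for Prdx1 was -3.91 with an adjusted p of 0.00325. The median log2 fold change in edgeR was -0.92 over the members and 0.03 over all genes.

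**Figure D4:**
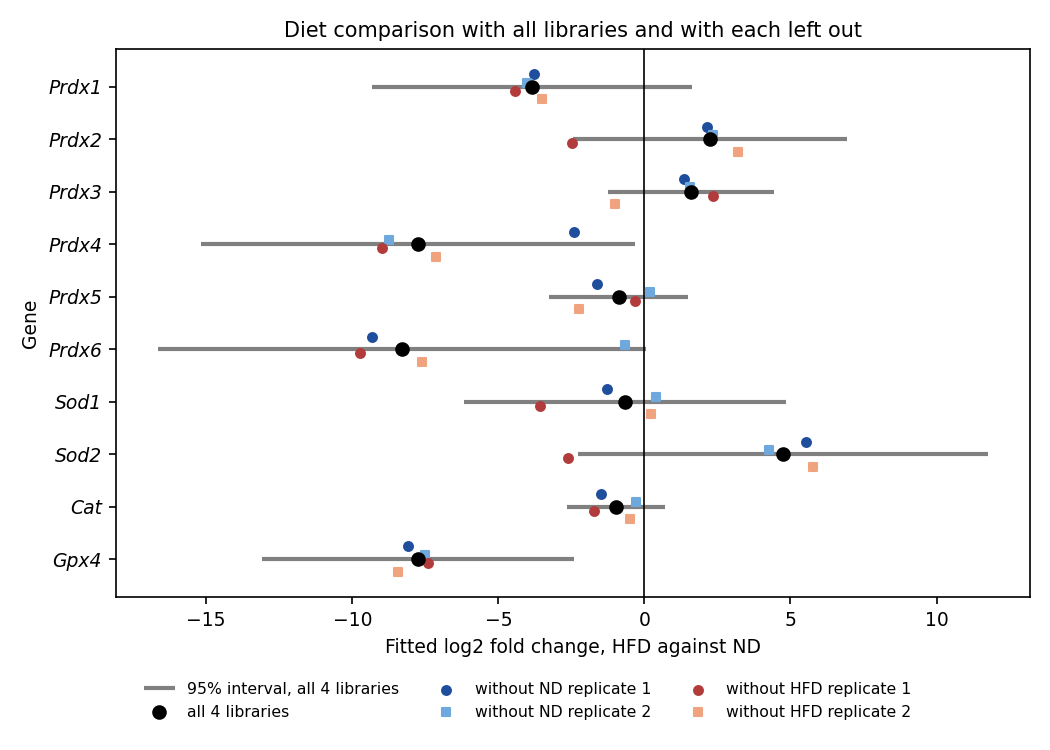
Fitted log2 fold change of HFD against ND for each member from edgeR (black, with its 95% interval as a grey bar) and with each library left out (coloured points). The points of Prdx1 and Gpx4 stay together, those of Prdx4 and Prdx6 move toward 0 without 1 ND library, and those of Prdx2, Prdx3, Prdx5, Sod1 and Sod2 lie on both sides of 0.

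Transcript length moved with the diet difference in these libraries. Among tested genes with a mean of at least 50 CPM, the median log2 fold change was -1.23 for 226 genes whose longest protein-coding transcript was up to 1000 bases and -1.49 for 530 genes up to 2000 bases, against 1.92 for 871 genes up to 4000 bases and 2.74 for 914 longer genes. Of the 7 members at that level, Prdx4, Sod1 and Gpx4 fall in the shortest class, Prdx2 in the next, Prdx1 and Prdx6 in the third and Sod2 in the longest. Prdx3, Prdx5 and Cat were below that level. The part of length in the members' values was not tested.

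Markers of other cell types had unequal RNA levels in the libraries. The 7 erythroid markers found summed to 1976 CPM in ND replicate 1 and to 3.97, 4.03 and 24.8 CPM in ND replicate 2 and the HFD libraries, led by Hbb-bs with 7350, 0, 2 and 1 counts. ND replicate 1 is also the library in which Prdx4, Gpx1 and Selenow were high. Prdx2 and Cat, both abundant in red blood cells, held 212 and 13 counts in ND replicate 1 and 206 and 26 in ND replicate 2. The 10 stromal markers summed to 2844 and 70.3 CPM in ND and 2232 and 7703 CPM in HFD. Col1a1 led them with 11776, 98, 6061 and 15691 counts, but single genes differed in where they were high. Dcn held 2656, 36, 8 and 17 counts and Lum 4916, 9, 6 and 7, whereas Postn held 24, 22, 17 and 7281. Pregranulosa markers summed to 37.5 and 414 CPM in ND and 19.2 and 1171 CPM in HFD, but single genes made up the high sums: Amhr2 gave 1113 CPM in HFD replicate 2, Fst gave 383 CPM in ND replicate 2, and Foxl2 held 14 to 34 counts in the libraries. Endothelial markers summed to 704 CPM in HFD replicate 1 and to 28.8 to 76.5 CPM in the others, and Kdr alone gave 681 CPM of the former, while Cdh5 and Tek held 10 and 20 counts there. Macrophage markers summed to 12.9 to 43.2 CPM, with Ptprc at 43 to 85 counts. Dazl, the leading germ cell marker, held 14247 and 29465 counts in ND and 2926 and 49 in HFD. Tex15, another of them, went the other way, with 413 and 48 counts in ND and 986 and 19207 in HFD. The part of cell makeup in the members' values was not tested.

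Related redox genes were taken as 5 lists: the thioredoxin system, glutathione, partners of the members, NRF2 regulation and targets, and enzymes that make reactive oxygen. Of these 70 genes, 69 were found and 64 tested. At an unadjusted p under 0.05 in edgeR, 9 were lower (14.1%, against 6.41% of all genes) and 5 higher (7.81%, against 4.82%), and 0 passed after adjustment. Their median log2 fold change was 0.04, 29 had lower and 35 higher values in HFD, 6 were above background in all 4 libraries and 21 in none.

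Thioredoxin genes, whose products return electrons to most peroxiredoxins, had 1 lower and 1 higher gene of 12 at that limit. These shares were 8.33% each, against 6.41% and 4.82% of all genes, and the median log2 fold change was 0.22. Txn1, cytosolic thioredoxin, held 2023 and 36 counts in ND and 16 and 14 in HFD (log2 fold change -5.56, standard error 2.13). Txnrd1, the reductase that recharges it, was high in 1 library of each diet, with 5476 and 26 counts in ND and 4868 and 29 in HFD. Txndc17, a thioredoxin-like protein, went the other way, with 58 and 139 counts in ND and 2698 and 2540 in HFD (log2 fold change 5.12, standard error 1.84, adjusted p = 0.406). It was low in both ND libraries and close between the HFD libraries. Txnl1, a proteasome-associated thioredoxin, held 6206 counts in HFD replicate 1 and 63 to 84 elsewhere. Srxn1, the sulfiredoxin that repairs over-oxidized peroxiredoxins, held 9 to 33 counts and was at background throughout.

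Glutathione genes gave 3 lower (16.7%, against 6.41% of all genes) and 0 higher (against 4.82%) of 18 tested, with a median of -0.03. Gstp1, a glutathione transferase, showed the same layout as Gpx4, with 5244 and 6853 counts in ND and 7 and 23 in HFD (log2 fold change -8.50, standard error 2.17, unadjusted p = 0.00815 and adjusted p = 0.406). Both of its ND libraries were high and both HFD libraries near background. Gpx1, the cytosolic selenoenzyme whose active site is printed above, held 9950 counts in ND replicate 1 and 44, 2 and 16 in the others. Gclc, the catalytic subunit of glutathione synthesis, held 34 and 59 counts in ND and 11 and 10 in HFD. It was above background in only 2 libraries. Glrx3, an iron-sulfur glutaredoxin, held 10206 and 2235 counts in ND and 3969 and 46 in HFD.

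Partners of the dismutases, catalase and the selenoproteins gave 2 lower and 2 higher of 12 (16.7% each, against 6.41% and 4.82% of all genes), with a median of 0.02. Selenow, a small selenoprotein, held 10930 counts in ND replicate 1 and 112, 11 and 50 in the others. Atox1, a copper chaperone, held 529 and 40 counts in ND and 4 and 18 in HFD. Sephs2, which makes the selenium donor for selenocysteine, held 759 and 104 counts in ND, 0 in HFD replicate 1, where up to 3 counts are allowed, and 1748 in HFD replicate 2. Sod3, the extracellular dismutase, was at background in all libraries with 10 to 43 counts.

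NRF2, the transcription factor that KEAP1 holds back, drives many antioxidant genes, and its list gave 3 lower (23.1%, against 6.41% of all genes) and 0 higher (against 4.82%) of 13 tested, with a median of -0.71. Fth1, the ferritin heavy chain that stores iron, held 16850 and 21708 counts in ND and 14 and 32 in HFD (log2 fold change -9.49, standard error 2.54, unadjusted p = 0.0105 and adjusted p = 0.406). Its partner Ftl1 held 20025 and 14082 counts in ND but 23 and 6843 in HFD, so that HFD replicate 2 came near the ND level. Keap1 held 40 and 60 counts in ND and 9 and 13 in HFD. Me1, a source of NADPH, held 37 and 53 in ND and 11 and 21 in HFD. Keap1 and Me1 were each above background in only 2 libraries. Nfe2l2, which encodes NRF2 itself, held 13 to 35 counts. Enzymes that make reactive oxygen had 2 higher (22.2%, against 4.82% of all genes) and 0 lower (against 6.41%) of 9 tested, with a median of 1.07. These were Maoa, a mitochondrial amine oxidase with 7805 counts in HFD replicate 1 and 11 to 19 elsewhere, and Xdh, xanthine dehydrogenase, at background in all libraries with 30 to 112 counts.

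**Figure D5:**
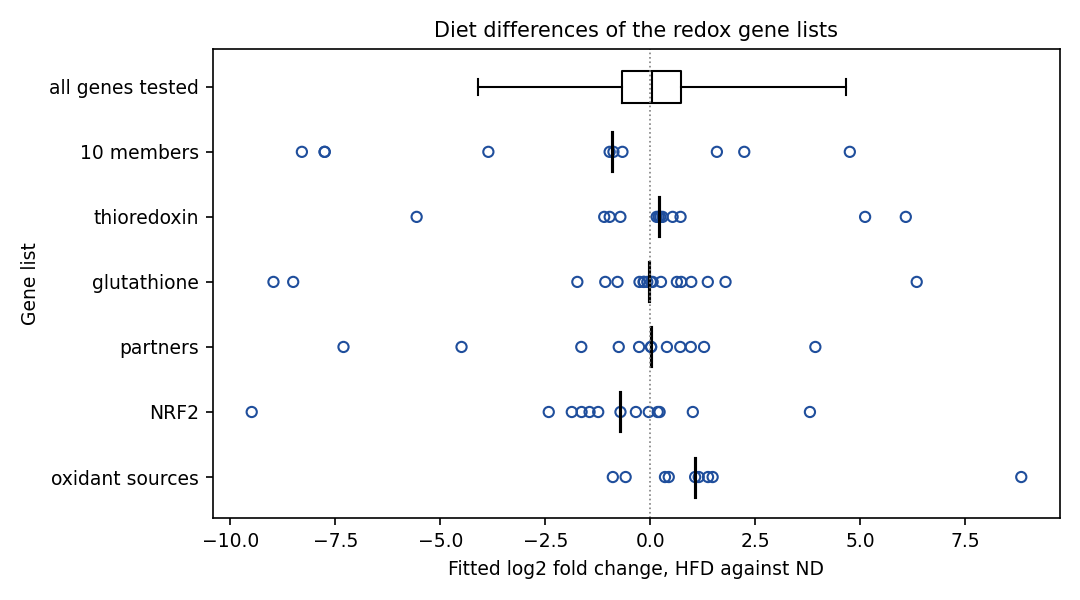
Fitted log2 fold change of HFD against ND from edgeR for each tested gene (circles) of the members and 5 related lists, with the median of each list as a black bar. The box for all 19335 genes runs between the quartiles with whiskers from the 5th to the 95th percentile. The list medians run from -0.92 for the members to 1.07 for the oxidant sources, and each list has circles on both sides of 0.

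The antioxidant response element is the DNA motif that NRF2 binds, and its core, TGACNNNGC, on either strand, was looked for in RefSeq windows of 300 bases (250 before to 50 after the start, GRCm38.p6). It was in 2 of the 9 members that have a window, where 13.99% of 27025 genes have it. Prdx6 has no entry. Among related redox genes searched, Gclm, Srxn1 and Txnrd1 also have it, and Srxn1 was at background in all 4 libraries. No match was found for Fth1, Ftl1, Gstp1, Gclc, Nqo1 or Hmox1, which were searched as well. The matches of the 2 members are shown with capitals marking the motif as read on the gene's strand, where it appears as its reverse complement.
Prdx1 at -133: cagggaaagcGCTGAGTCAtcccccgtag
Sod1 at -56: gccaaggtggGCGTGGTCAgactcaggcc
A match is a description of these letters only.

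The genes most like Prdx1 over the 4 libraries were Cfl1, Sarnp, Znrf3, Ints7 and Kdm5b, by the smallest Euclidean distance of centred log2 CPM among 2614 genes with a mean of at least 50 CPM. Cfl1, an actin-severing protein, was nearest with a distance of 0.23 and counts of 22347 and 16576 in ND and 955 and 1261 in HFD. Sarnp came next at 0.56, with 26445 and 16243 counts in ND and 710 and 799 in HFD, and Kdm5b closed the 5 at 0.83. All 5 were high in both ND libraries and low in both HFD libraries. The next member by this measure was Sod1 at position 176, followed by Gpx4 at 325 and Prdx4 at 523, whereas Sod2 stood at 1539.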

How the data were processed

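RNA-seq was available from 2 ND and 2 HFD libraries, grouped by the labels' treatment. Per the submitters' processing notes and methods, reads were trimmed with Trim Galore, aligned to mm10 with HISAT2 and counted with featureCounts. The deposited files hold raw counts per Ensembl gene, used here as the authors left them. The annotation release, strand setting and handling of multiply aligned reads are not given in the sources used here. Names, exon lengths and transcripts came from GENCODE M21, which listed 55141 of 55401 identifiers. Diets were compared with edgeR 4.0.16 (quasi-likelihood, legacy = FALSE, TMM, filterByExpr, R 4.3.3) over 19335 genes, called at a Benjamini-Hochberg adjusted p under 0.05 and a fold change over 1.5, and the functions were tested on simulated data. Standard errors were obtained by dividing the absolute log2 fold change by the square root of its F statistic. Alternatives used DESeq2 1.42.0, limma 3.58.1, other scalings and filters, a replicate block, and each library left out. With 2 against 2 samples an exact permutation test cannot go below 0.333. Copies were matched with blastn at 95% identity or more over at least 200 bases. Catalytic codons were located by the conserved residues around them in the translated reading frame. The members and lists were chosen with earlier results of these data known. Named from each list were the 2 genes with the highest mean CPM and up to 3 with the smallest unadjusted p under 0.05, and for cell types the leading marker. Srxn1, Nfe2l2, Ddx4, Tex15, Foxl2, Fst, Cdh5, Tek, Dcn, Lum, Postn and Prdx6b were named after their values were seen. So were the overlapping genes and the 7 genes with close replicates.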

Additional observations from a re-analysis of the deposited data

How the results depend on the processing

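Calls over all genes numbered 0 in edgeR under RLE factors, library totals, both other filters, no fold change minimum, limma-voom and each library left out, with 2171 genes at an unadjusted p under 0.05 in the reported fit. DESeq2 called 2539 genes on all genes and 2102 on the filtered genes, and edgeR's legacy fit 34 (12 higher, 22 lower). Sod2, called by DESeq2 on all genes, was not called on the filtered genes (adjusted p = 0.0986), and Prdx3, Prdx5 and Cat did not have 10 counts in every library. Library totals moved the median log2 fold change of all genes from 0.03 to 0.21. The members at an unadjusted p under 0.05, 2 as reported, numbered 5 in DESeq2 on either gene set, 3 with library totals, 4 with at least 10 counts in every library, 1 with no filter, 1 in limma-voom and 0 in the legacy fit. Pathway genes at that limit, 14 as reported, numbered 9 with library totals, 17 and 12 in DESeq2 on the filtered and on all genes, 5 in limma-voom and 4 in the legacy fit. With each library left out, the log2 fold change in edgeR ran from -8.985 to -2.411 for Prdx4 and from -8.42 to -7.41 for Gpx4.

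With the replicate number as a block, edgeR called 0 genes, and 2 members and 6 pathway genes were at an unadjusted p under 0.05. These 2 were Gpx4 and Prdx5, and Prdx4 was no longer among them. Same-numbered libraries did not deviate together (r = 0.0112 over 19335 genes), so the numbers are not taken as pairs.

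Left-out fits ranged from -2.49 to 3.22 for Prdx2, -1.02 to 2.34 for Prdx3, -2.23 to 0.18 for Prdx5, -3.58 to 0.39 for Sod1 and -2.61 to 5.76 for Sod2 (log2 fold change). The direction turned for Prdx2 without HFD replicate 1 (-2.49), for Sod2 without HFD replicate 1 (-2.61), for Prdx3 without HFD replicate 2 (-1.02) and in limma-voom (-0.14), for Prdx5 without ND replicate 2 (0.18), and for Sod1 without ND replicate 2 (0.39) or HFD replicate 2 (0.24). By construction each of the left-out fits rests on 3 libraries, and the lone library is assumed to vary like the other diet. The limma-voom turn's cause was not tested. Prdx1, Prdx4, Prdx6, Cat and Gpx4 had negative log2 fold changes under all alternatives run. The summed level of ND replicate 2 was 10144 CPM after TMM, and the order of the diets was the same with TMM and with pseudogenes added.

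With 2 pools per diet and replicates mostly over 10-fold apart at the 50 CPM level, the 95% intervals of single genes are several log2 units wide. Cat, Prdx5 and the lower values of Prdx3 and Prdx6 lie near background, where their levels cannot be told from it. The same holds for Gpx4 in HFD replicate 1 and for Prdx4 and Sod2 in HFD replicate 2. Fold changes that use these values are uncertain in size.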
